A study of Homo sapiens with 26 samples.

Results

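FST, FSTL1, FSTL3, INHBA, INHBB, BMP2, BMP4, BMP7, ID1 and ID3 were examined as 10 genes of the follistatin, activin and BMP axis, out of 41078 genes in the expression table. They were taken by gene symbol and chosen from their TPM values in these libraries, starting from the on-off pattern of FST, so their differences between the groups defined next are a description. The samples were 26 single cell-derived cell lines (SCDCLs), each grown from 1 cell of the pancreatic ductal adenocarcinoma lines BxPC3 or Panc-1 and each sequenced as 1 poly(A)-selected mRNA library. BxPC3 is a line of the classical subtype and Panc-1 of the basal-like subtype. Both were grown in high-glucose DMEM with fetal bovine serum. The labels name BxPC3 for 12 libraries and Panc-1 for 14. They give gemcitabine as the treatment of every library. The study's methods describe this drug only for viability assays, and place RNA collection at the end of growing up each SCDCL, without naming a drug. Whether the sequenced cells had been treated is therefore unclear, and the labels name no untreated group for comparison. Each SCDCL is 1 clone with 1 library, so the spread behind a p-value is that of clone and library effects together.

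The libraries were split by the level of SMAD4, the common partner of the SMADs that carry activin and BMP signals. In TPM, a transcript level corrected for transcript length and library size, SMAD4 was 0 to 0.0440 in 12 libraries, here called SMAD4-negative, and 28.1 to 52.2 in the other 14, called SMAD4-positive, on either side of the limit of 1 TPM. The SMAD4-negative libraries carried the BxPC3 label in 5 cases and the Panc-1 label in 7, and each label occurred in 7 of the SMAD4-positive ones. BxPC3 is known to lack SMAD4 and Panc-1 to express it, so the label disagreed with SMAD4 in 7 libraries of each label. Line names below refer to labels only. The SMAD4-negative and SMAD4-positive groups, with 12 and 14 libraries, are as large as the sets labelled BxPC3 and Panc-1. Whether the SMAD4 groups are the lines of origin was not tested. SMAD4 status and line of origin cannot be told apart here, so no difference between the groups is attributed to SMAD4. Total estimated counts were 27035724 to 34945608 per library. Among markers of ductal epithelium, KRT19 was at 558.1 TPM or more in every library, and 3 of the 5 markers (CDH1, EPCAM and KRT7) were higher in all SMAD4-negative libraries. KRT8 had the opposite order with overlap, at 298.4 to 781.2 TPM in the SMAD4-negative and 703.7 to 4005 TPM in the SMAD4-positive libraries. The summed TPM of the 5 was 3627 to 7523 in the SMAD4-negative and 1334 to 5705 in the SMAD4-positive libraries, with no marker at 0. Of 5 mesenchymal markers, VIM, ZEB1 and SPARC were higher in all SMAD4-positive libraries and FN1 in all SMAD4-negative ones, and their sum was 3129 to 4574 TPM against 12.5 to 129 TPM. Of 5 markers of stromal, immune and endothelial cells, ACTA2 was higher in all SMAD4-negative and CD68 in all SMAD4-positive libraries, with sums of 21.96 to 60.8 and 48.6 to 155 TPM. KRT19, CDH2, COL1A1 and PECAM1 overlapped between the groups. Of 14763 genes with a mean of at least 1 TPM, 14.5% were higher in every SMAD4-negative library and 15.8% in every SMAD4-positive library. The leukocyte marker PTPRC reached at most 0.535 TPM. The part of these epithelial and mesenchymal differences in the results below was not tested. In bulk RNA, fewer cells with a transcript and less transcript per cell cannot be told apart.

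Activins and bone morphogenetic proteins (BMPs) are secreted dimers of the TGF-beta superfamily. INHBA and INHBB encode the subunits of activin A and activin B, which signal through type I and type II receptor kinases to SMAD2 and SMAD3, whereas BMPs signal to SMAD1, SMAD5 and SMAD9, and both branches use SMAD4. Follistatin (FST) and FSTL3 bind activins outside the cell and block them, and the genes ID1 and ID3, whose products inhibit basic helix-loop-helix transcription factors, are classical targets of BMP signals.

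The 10 genes differed in both directions across the split. In TPM, the 2 groups of libraries did not overlap for 6 of the 10 genes. FST, FSTL1 and INHBA were higher in every SMAD4-negative library, and FSTL3, INHBB and ID3 in every SMAD4-positive library. Of 14763 genes with a mean of at least 1 TPM, 30.3% did not overlap either, with 14.5% higher in the SMAD4-negative and 15.8% in the SMAD4-positive libraries. Since the genes were chosen with this contrast in view, nothing is read from the count. BMP2, BMP4, BMP7 and ID1 overlapped. The median log2 difference over all genes with a mean of at least 1 TPM was -0.02 (SMAD4-negative minus SMAD4-positive) on the TPM scale, on which library totals are nearly fixed.

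**Figure D1:**
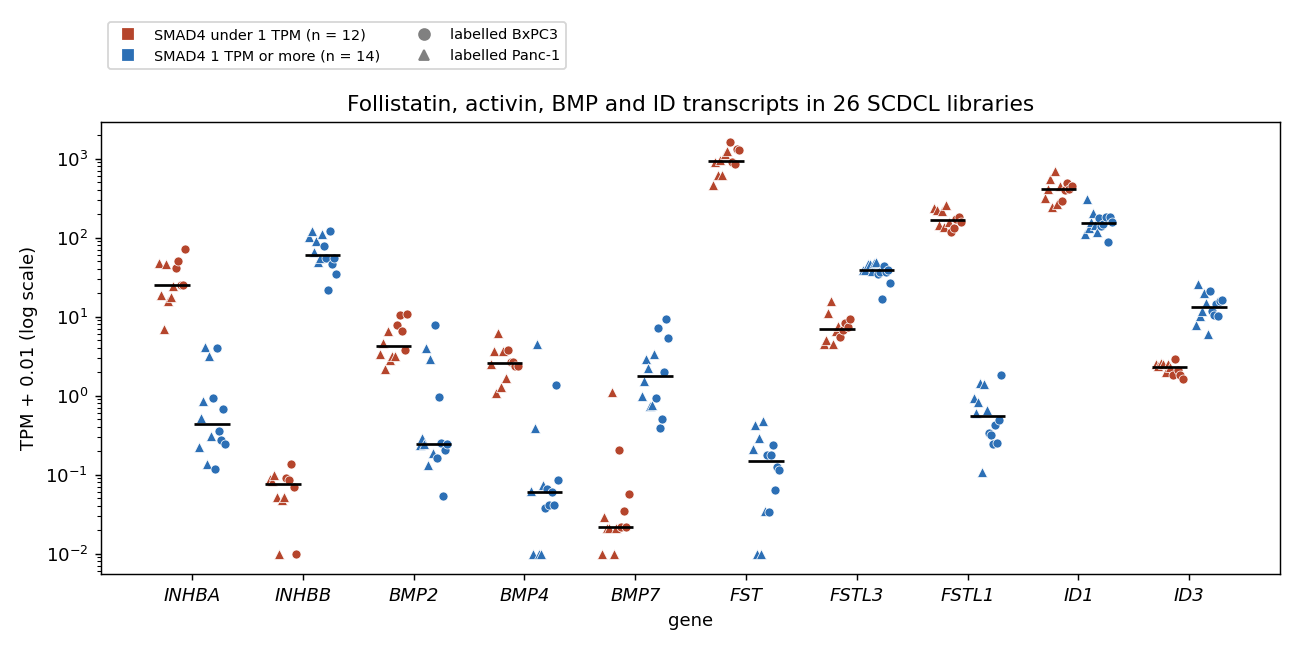
Level of each gene in each of the 26 libraries, as TPM plus 0.01 on a log scale, with SMAD4-negative libraries in red, SMAD4-positive libraries in blue, the BxPC3 label as circles, the Panc-1 label as triangles and the group median as a black line. FST and INHBB are separated by wide gaps in opposite directions, FSTL3 by a narrow one, and ID1 overlaps.

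The promoters of 5 of these genes are shown because the genes differ in opposite directions and their start regions differ in base composition. The RefSeq promoter table held windows for 8 of the 10 genes; BMP2 and BMP7 had no entry. The windows are the 250 bases before a RefSeq transcript start in GRCh38, written 5' to 3' on the strand of the gene. FST is shown at chr5:53480379-53480628 (plus strand), INHBA at chr7:41703091-41703340 (minus), INHBB at chr2:120345886-120346135 (plus), ID1 at chr20:31605039-31605288 (plus) and ID3 at chr1:23559502-23559751 (minus). Capitals mark every CG dinucleotide and every TATAA or TTATA, which are the same motif on opposite strands.
FST: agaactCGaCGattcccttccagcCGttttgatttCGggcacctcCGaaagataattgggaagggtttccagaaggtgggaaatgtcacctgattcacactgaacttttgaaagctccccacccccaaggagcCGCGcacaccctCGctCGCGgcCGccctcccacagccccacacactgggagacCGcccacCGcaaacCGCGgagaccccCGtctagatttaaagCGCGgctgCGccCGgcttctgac
INHBA: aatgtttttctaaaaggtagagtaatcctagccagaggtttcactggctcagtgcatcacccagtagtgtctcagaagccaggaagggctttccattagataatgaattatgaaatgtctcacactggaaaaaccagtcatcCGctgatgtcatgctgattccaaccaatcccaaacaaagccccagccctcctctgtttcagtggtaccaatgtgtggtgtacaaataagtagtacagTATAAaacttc
INHBB: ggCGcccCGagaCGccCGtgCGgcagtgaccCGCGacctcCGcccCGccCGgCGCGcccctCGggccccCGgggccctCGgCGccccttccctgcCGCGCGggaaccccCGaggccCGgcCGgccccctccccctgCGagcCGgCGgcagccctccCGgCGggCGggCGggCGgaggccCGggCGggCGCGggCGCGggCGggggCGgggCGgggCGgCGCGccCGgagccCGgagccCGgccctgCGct
ID1: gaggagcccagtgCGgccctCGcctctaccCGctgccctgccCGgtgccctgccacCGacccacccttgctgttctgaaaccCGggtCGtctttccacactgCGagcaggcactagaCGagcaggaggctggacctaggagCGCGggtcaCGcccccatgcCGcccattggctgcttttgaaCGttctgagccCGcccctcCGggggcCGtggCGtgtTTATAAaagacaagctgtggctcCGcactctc
ID3: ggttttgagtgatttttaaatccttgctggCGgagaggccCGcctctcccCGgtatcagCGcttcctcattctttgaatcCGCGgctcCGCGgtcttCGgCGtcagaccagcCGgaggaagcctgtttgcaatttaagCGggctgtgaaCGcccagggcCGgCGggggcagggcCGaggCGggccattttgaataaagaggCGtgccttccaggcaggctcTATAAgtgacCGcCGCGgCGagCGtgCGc
INHBB had 46 CG dinucleotides in its window and a GC content of 89.6%, more CG than 99.6% of 35114 promoter windows. INHBA, which encodes the other activin subunit, had 1 CG and a GC content of 42.8%, and only 6.05% of windows had fewer. The INHBA window lies inside the gene span given below, so it belongs to a RefSeq start within that span and not at its 5' end. The median window had 11 CG. FST had 20, ID1 19 and ID3 24. TATAA or TTATA occurred in the windows of INHBA, ID1 and ID3 but not in those of FST and INHBB, and in 18.9% of all windows. The SMAD-binding letters CAGAC or GTCTG were found in the ID3 window and in 38.0% of all windows, and a match or its absence in this stretch describes the letters only.

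Among the ligand subunits, the activin genes were divided between the groups. INHBA (ENSG00000122641, GRCh38 chromosome 7, 41667168 to 41705834, minus strand) was at 6.90 TPM at the lowest, 24.97 at the median and 71.3 at the highest in the 12 SMAD4-negative libraries. In the 14 SMAD4-positive libraries it was at 0.107, 0.433 and 4.12 TPM. The groups did not overlap, and library 3 (labelled Panc-1), lowest of the first, stood at 1.67 times library 11 (labelled Panc-1), highest of the second.

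INHBB (ENSG00000163083, chromosome 2, 120346136 to 120351803, plus strand) was at 21.43, 61.1 and 122.5 TPM (lowest, median and highest) in the SMAD4-positive libraries. It was at 0, 0.0666 and 0.128 TPM in the SMAD4-negative libraries, where it never exceeded 7.79 estimated counts. The lowest library of the higher group, library 18 (labelled BxPC3), stood 166.9 times above the highest of the lower group. Thus every library held one activin subunit transcript at 6.90 TPM or more, and the other subunit at 4.12 TPM or less.

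The transcripts of BMP2, BMP4 and BMP7 were below 11 TPM in every library. BMP2 (ENSG00000125845, chromosome 20, 6767686 to 6780246, plus strand) was at 2.17, 4.19 and 10.7 TPM in the SMAD4-negative libraries and at 0.0443, 0.236 and 7.90 TPM in the SMAD4-positive ones. Libraries 15, 11 and 13 of the SMAD4-positive group, with 7.90, 3.97 and 2.87 TPM, lay inside the range of the SMAD4-negative group. BMP4 (ENSG00000125378, chromosome 14, 53949736 to 53958761, minus strand) was at 1.07, 2.59 and 6.14 TPM in the SMAD4-negative libraries and at 0, 0.0507 and 4.48 TPM in the others. Of the SMAD4-positive libraries, 2 reached the SMAD4-negative range, library 11 with 4.48 TPM and library 22 with 1.36 TPM.

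BMP7 (ENSG00000101144, chromosome 20, 57168753 to 57266641, minus strand), which encodes a further BMP ligand, had the opposite order. It was at 0.378, 1.74 and 9.201 TPM in the SMAD4-positive libraries and at 0, 0.0117 and 1.11 TPM in the SMAD4-negative ones. The overlap rested on library 5 (labelled Panc-1). Its 1.11 TPM corresponded to 69.1 length-scaled counts, but the mean of 4 resampled estimates that the quantification program made from its reads, which are not scaled by length, was 2.255 counts. With this mean count divided by the library's total (CPM), the SMAD4-negative libraries were at 0.125 or less and the SMAD4-positive ones at 0.755 or more, and 7 of the 10 genes did not overlap, beside 33.6% of the 14763 genes on that scale.

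Within the SMAD4-positive group, the low ligand levels were not spread evenly. Libraries 11, 13, 15 and 18 held the 4 highest values of both INHBA and BMP2. Library 11 had 4.12 TPM of INHBA, 3.97 of BMP2 and 4.48 of BMP4. Library 13 had 3.14 TPM of INHBA and 2.87 of BMP2, while its BMP4 was 0. Library 15 was high mainly in BMP2, with 7.90 TPM against 0.933 TPM of INHBA, and library 18 mainly in INHBA, with 4.04 TPM against 0.941 TPM of BMP2. Libraries 11 and 13 were labelled Panc-1, and 15 and 18 BxPC3. BMP7 was highest in other libraries, with 9.201 TPM in library 22, 7.199 in library 17 and 5.43 in library 23, all labelled BxPC3.

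**Figure D2:**
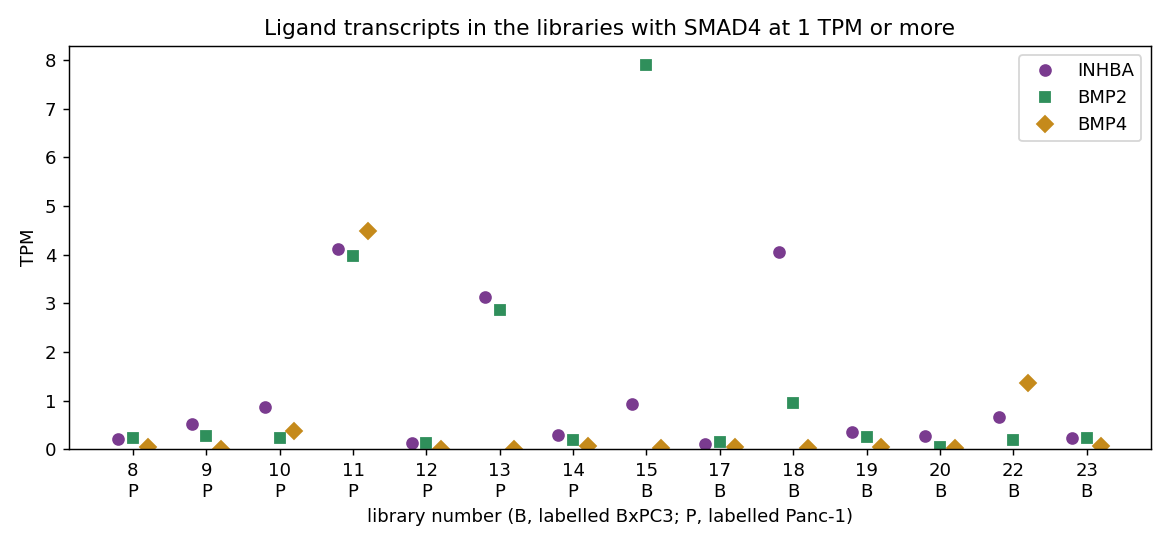
TPM of INHBA, BMP2 and BMP4 in each of the 14 SMAD4-positive libraries, on a linear axis, with the library number and its label (B, BxPC3; P, Panc-1) below. Library 11 is high in all 3 genes, library 13 in INHBA and BMP2, library 15 in BMP2 and library 18 in INHBA.

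Of the antagonists, FST and FSTL3 had opposite orders. FST (ENSG00000134363, chromosome 5, 53480626 to 53487134, plus strand), the secreted activin-binding protein, was at 458.3, 933.6 and 1617 TPM in the SMAD4-negative libraries. In the SMAD4-positive libraries it was at 0, 0.141 and 0.467 TPM, and its highest value, in library 13, rested on 14.01 length-scaled estimated counts. The mean of its resampled estimates in library 13 was 6.549 counts. The groups did not overlap, and the lowest library of the first stood 982 times above the highest of the second.

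FSTL3 (ENSG00000070404, chromosome 19, 676392 to 683392, plus strand), which also binds activins, was higher in the SMAD4-positive libraries, with a small gap. It was at 4.49, 7.04 and 15.6 TPM in the SMAD4-negative libraries and at 16.9, 38.5 and 48.6 TPM in the SMAD4-positive libraries. Library 18, the lowest of the second group, was only 1.08 times library 4, the highest of the first. FSTL1 (ENSG00000163430, chromosome 3, 120392293 to 120451016, minus strand), a secreted glycoprotein with a follistatin-like domain, was at 116.5, 165.5 and 257.2 TPM in the SMAD4-negative libraries and at 0.0987, 0.536 and 1.83 TPM in the others. It did not overlap, with a 63.5-fold gap.

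FST and FSTL3 together gave 462.7, 944.4 and 1623 TPM in the SMAD4-negative libraries and 17.03, 38.8 and 48.6 TPM in the SMAD4-positive libraries. FST supplied 98.3% to 99.7% of this sum in the first group and 0% to 1.06% in the second, so FSTL3 was the main transcript of the pair there. INHBA divided by the sum was 0.0109, 0.0255 and 0.102 in the SMAD4-negative libraries and 0.00294, 0.0111 and 0.238 in the SMAD4-positive ones. These ratios of TPM overlapped, although each of the 3 genes in them did not. They leave out INHBB, which was higher than INHBA in every SMAD4-positive library. INHBB was at 21.43, 61.1 and 122.5 TPM there, and at 0, 0.0666 and 0.128 TPM in the SMAD4-negative libraries. The overlap therefore holds for INHBA only, and a ratio with INHBA and INHBB summed was not computed. The ratios compare transcript levels, and no protein was measured.

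The BMP target genes ID1 and ID3 went in opposite directions. ID1 (ENSG00000125968, chromosome 20, 31605283 to 31606515, plus strand) was at 246, 414 and 696 TPM in the SMAD4-negative libraries and at 88.0, 152 and 306 TPM in the SMAD4-positive libraries, with medians 2.72-fold apart. The overlap came from library 9 (labelled Panc-1), the only SMAD4-positive library above 246 TPM. ID3 (ENSG00000117318, chromosome 1, 23557926 to 23559501, minus strand) was at 1.60, 2.32 and 2.88 TPM in the SMAD4-negative libraries and at 5.96, 13.23 and 25.7 TPM in the others, without overlap and with a 2.07-fold gap. A row with no symbol, ENSG00000283060, had the same TPM as ID3 in all 26 libraries, so reads of ID3 were divided with it and the ID3 level is uncertain. Summed over both rows, ID3 was at 3.195, 4.64 and 5.76 TPM against 11.9, 26.5 and 51.4 TPM, and the groups again did not overlap.

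Of the pairs computed, ID1 with ID3 passed in one group and ID1 with BMP4 in the other. ID1 with BMP4 was not computed in the SMAD4-positive libraries, where BMP4 had a mean under 1 TPM. Correlations of log2(TPM + 1) were computed for 10 pairs of genes and groups, with 100000 permutations each and Benjamini-Hochberg adjustment over the 10. In the 14 SMAD4-positive libraries, ID1 and ID3 had r = 0.824 (permutation test, p = 0.00031, adjusted p = 0.0031) and rho = 0.873 (permutation p = 0.00012, adjusted p = 0.0012). Library 9 was highest in both, with 306 TPM of ID1 and 25.7 of ID3. Without the 2 libraries farthest from the ID1 median, r was 0.868 (permutation test, adjusted p = 0.0023), with both genes centred within labels it was 0.852, and with any 1 library left out it was 0.764 to 0.870.

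In the 12 SMAD4-negative libraries, ID1 and BMP4 had r = -0.846 (permutation test, p = 0.00065, adjusted p = 0.00325) and rho = -0.839 (permutation p = 0.00129, adjusted p = 0.00645). Library 4 had the lowest ID1 (246 TPM) and the highest BMP4 (6.14 TPM), whereas libraries 5 and 3, highest in ID1 with 696 and 549 TPM, had the lowest BMP4, with 1.26 and 1.07 TPM. Centred within labels, r was -0.855, and with any 1 library left out it was -0.880 to -0.794. Without the 2 libraries farthest from the ID1 median, r was -0.721 and no longer passed (permutation test, p = 0.0182, adjusted p = 0.0911), so the call depended on including those libraries. Their removal left 10 libraries and a narrower range of ID1. On the CPM scale r was -0.789 (permutation test, adjusted p = 0.0126), and rho was -0.713 and did not pass (permutation test, adjusted p = 0.0586). With the resampled counts as CPM, r was -0.739 (permutation test, adjusted p = 0.0304), and rho was -0.636 and did not pass (permutation test, adjusted p = 0.150). BMP4 rested on 30.6 to 174 estimated counts per library.

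The other 8 relations did not pass. ID1 and ID3 had r = -0.242 in the SMAD4-negative libraries (permutation test, adjusted p = 0.741), where ID3 had a median of only 41.0 estimated counts. Whether this correlation differed from that in the SMAD4-positive libraries was not tested. ID1 with BMP2 had r = -0.250 in the SMAD4-negative and 0.125 in the SMAD4-positive libraries, and ID1 with BMP7 -0.0928 in the latter. INHBA with FST had r = 0.295 in the SMAD4-negative libraries, and 0.0902 to 0.600 with any 1 library left out. INHBA with FSTL3 had r = 0.0271 in the SMAD4-negative and -0.188 in the SMAD4-positive libraries, and INHBA with INHBB had r = -0.277 in the latter (permutation test, smallest adjusted p for r of these 8 = 0.741).

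**Figure D3:**
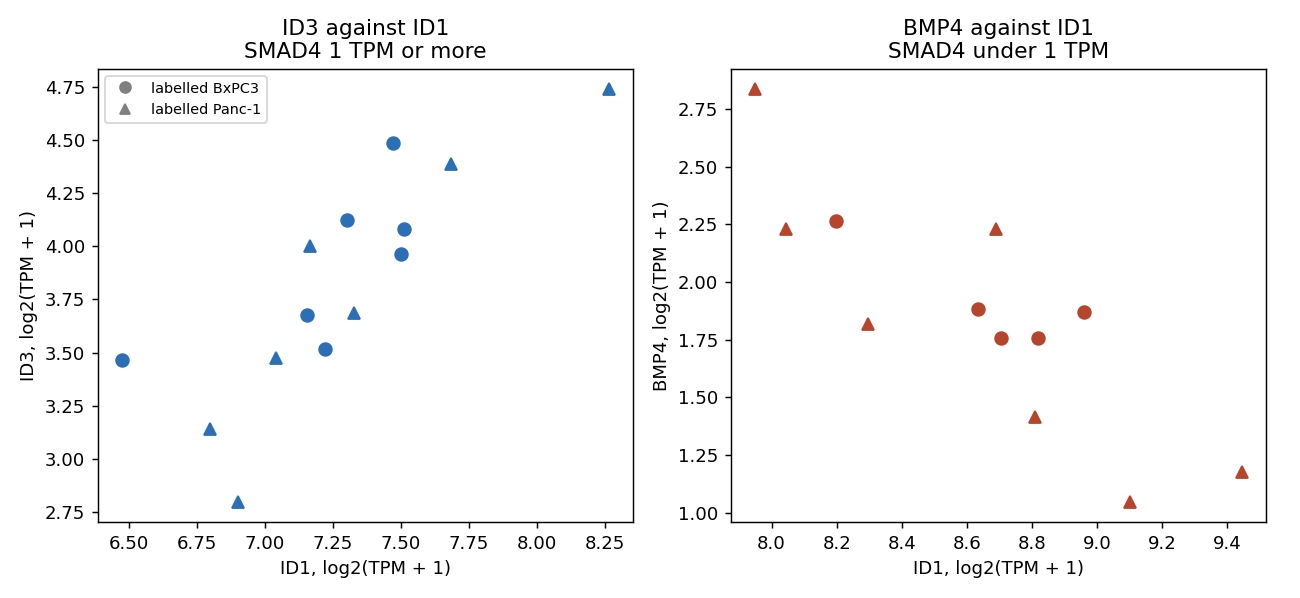
Left, ID3 against ID1 in the 14 SMAD4-positive libraries (r = 0.824); right, BMP4 against ID1 in the 12 SMAD4-negative libraries (r = -0.846). Each point is a library, both axes are log2(TPM + 1), circles are the BxPC3 label and triangles the Panc-1 label.

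The spread between libraries of one group is given beside the quantification error, which covers the counting and assignment of reads only. For FST in the SMAD4-negative libraries, the coefficient of variation (CV) between libraries was 34.2%, and the median CV over the 4 resampled estimates of a library was 0.418%. For INHBA there it was 57.4% against 1.68%, and for INHBB in the SMAD4-positive libraries 45.1% against 1.24%. Among the genes compared, ID3 in the SMAD4-negative libraries came closest, with 17.06% between libraries against 11.7% over the resampled estimates. INHBB and BMP7 in the SMAD4-negative libraries had too few counts and were not compared. The same held for FST, BMP2 and BMP4 in the SMAD4-positive libraries. Ranked by the SD of log2(TPM + 1) among genes with a mean of at least 1 TPM, INHBA varied more than 96.4% of 14375 genes in the SMAD4-negative libraries and more than 94.5% of 13826 genes in the SMAD4-positive libraries. BMP2 stood at 91.4% and 97.1%. FST stood at 86.3% and FSTL1 at 65.75% in the first group. ID3 stood at 10.14% in the first group, less variable than most genes, and at 85.4% in the second.

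None of the 10 genes was called different between the labels (edgeR, 0 of 10, and 0 at an unadjusted p under 0.05 in the 3 fits over all libraries). The background was 0.0% of 16008 genes called by edgeR's quasi-likelihood test at an adjusted p under 0.05, in each direction, with the label alone (367 genes at an unadjusted p under 0.05), with the SMAD4 group as a covariate (1204) and for the interaction of label and SMAD4 group (1273). DESeq2 called 1, 2 and 11 genes in these fits, none of them among the 10. With the SMAD4 group in the model, the log2 fold changes (Panc-1 label minus BxPC3 label) ran from -0.69 (SE 0.63) for BMP2 to 0.79 (SE 0.72) for BMP4. FSTL1 had 0.50 (SE 0.27, edgeR adjusted p = 0.694) and FST -0.21 (SE 0.30, edgeR adjusted p = 0.897). The interaction adjusted p of the 10 genes was 0.675 to 0.952. Because many labels disagreed with SMAD4, these tests describe the labels only. They cannot say whether the 10 genes differ between the BxPC3 and Panc-1 lines.

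Fitted within the SMAD4-negative libraries alone, 8 of the 10 genes passed the count filter, and BMP2 had the smallest p. It was at 3.72, 6.64, 7.74, 10.5 and 10.7 TPM in the 5 libraries labelled BxPC3 and at 2.17 to 6.64 TPM, with a median of 3.204, in the 7 labelled Panc-1, so the labels overlapped. Its log2 fold change was -1.08 (SE 0.32), with an edgeR p of 0.00459 and an adjusted p of 0.404. Within the SMAD4-positive libraries, FSTL3 was at 37.3 to 48.6 TPM under the Panc-1 label and at 16.9 to 43.6 TPM under the BxPC3 label, with a log2 fold change of 0.39 (SE 0.16, edgeR p = 0.0261, adjusted p = 0.982).

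**Figure D4:**
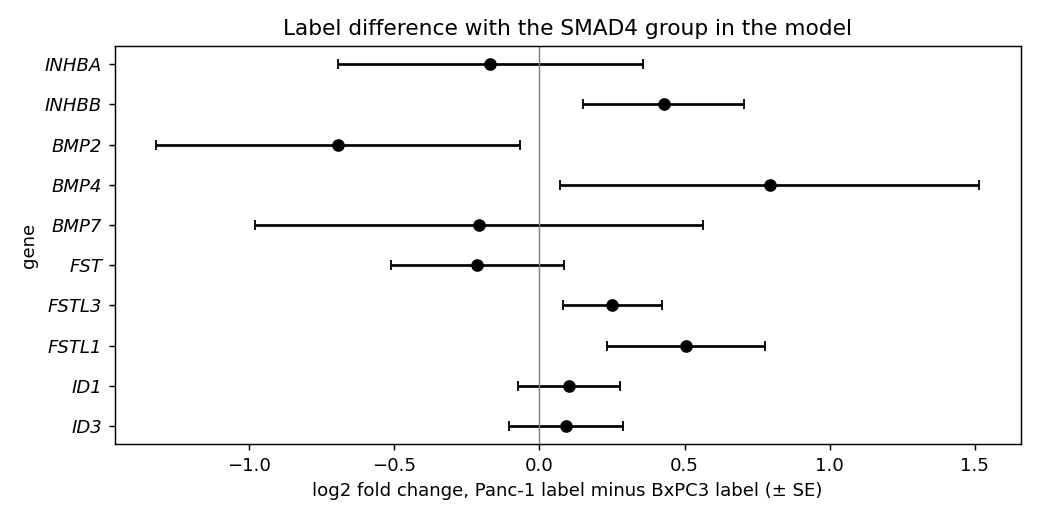
Log2 fold change between the labels (Panc-1 minus BxPC3) for each of the 10 genes, from the edgeR fit with the SMAD4 group as a covariate, with bars of 1 SE. The values run from -0.69 for BMP2 to 0.79 for BMP4, and no gene passed the adjusted threshold.

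Other genes of the pathway were taken from lists by role. Of 22 other activin, inhibin, BMP and GDF ligands, 6 had a mean of at least 1 TPM, and of these 3 were higher in every SMAD4-positive library and 0 in every SMAD4-negative library, beside 15.8% and 14.5% of all genes with that mean. BMP6, a BMP ligand, was at 11.7 to 67.6 TPM in the SMAD4-positive and 0.443 to 1.87 TPM in the SMAD4-negative libraries. BMP5 was at 0.236 to 19.6 TPM against at most 0.0177 TPM. GDF15, a stress-responsive ligand, overlapped, with 85.1 to 835 TPM in the SMAD4-positive and 13.6 to 92.7 TPM in the SMAD4-negative libraries. The median log2 difference of the 6 (SMAD4-negative minus SMAD4-positive) was -1.38, beside -0.02 over all genes.

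Of 15 receptors and co-receptors, 11 had a mean of at least 1 TPM. The type I BMP receptor BMPR1A was at 34.3 to 58.5 TPM in the SMAD4-positive and 18.6 to 26.6 TPM in the SMAD4-negative libraries, the type II receptor BMPR2 at 22.15 to 42.6 against 10.28 to 19.06 TPM, and the co-receptor ENG (endoglin) at 12.9 to 35.7 against 1.36 to 10.05 TPM. ACVR1C, which encodes the type I receptor ALK7, had the reverse order, with at most 0.227 TPM in the SMAD4-positive and 1.46 to 6.96 TPM in the SMAD4-negative libraries. In all, 3 receptors were higher in every SMAD4-positive and 2 in every SMAD4-negative library of the 11, beside 15.8% and 14.5% of all genes, and their median log2 difference was 0.0014. The activin receptors ACVR1B and ACVR2A overlapped, at 15.04 to 26.5 and 11.08 to 38.0 TPM over all libraries.

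Of 21 other genes listed as antagonists or follistatin relatives, 5 had a mean of at least 1 TPM. NOG (noggin), which sequesters BMPs, was at 7.17 to 60.0 TPM in the SMAD4-positive and 0.131 to 1.22 TPM in the SMAD4-negative libraries. NBL1, a DAN-family antagonist, was at 101 to 213 against 50.6 to 94.3 TPM, and CRIM1 at 163.5 to 349.7 against 43.2 to 104.5 TPM. FSTL4, related to follistatin by sequence, was higher in the SMAD4-negative libraries, at 6.36 to 12.8 against 0.131 to 1.07 TPM. TWSG1, which binds BMPs and chordin, overlapped, at 61.0 to 114.6 TPM in the SMAD4-negative and 22.19 to 87.8 TPM in the SMAD4-positive libraries. In all, 3 of the 5 were higher in every SMAD4-positive and 1 in every SMAD4-negative library, beside 15.8% and 14.5% of all genes.

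Of 7 SMADs other than SMAD4, 6 had a mean of at least 1 TPM, and 3 of them were higher in every SMAD4-positive library and 0 in every SMAD4-negative one, again beside 15.8% and 14.5% of all genes. The inhibitory SMAD6 was at 5.18 to 21.25 against 0.539 to 4.79 TPM and the inhibitory SMAD7 at 12.34 to 28.7 against 1.90 to 4.88 TPM. SMAD2, which carries activin signals, was at 57.7 to 101.6 against 23.8 to 37.8 TPM. SMAD1, SMAD3 and SMAD5 overlapped. Of 14 other BMP target genes, 12 had a mean of at least 1 TPM, of which 5 were higher in every SMAD4-positive and 2 in every SMAD4-negative library, against the same shares of 15.8% and 14.5%. ID2, a relative of ID1 and ID3, was at 1.16 to 9.59 TPM in the SMAD4-positive libraries and at most 0.759 TPM in the others, like ID3 and unlike ID1. The homeobox genes MSX1 and MSX2 had opposite orders, with MSX1 at 8.15 to 15.99 TPM and MSX2 at 0.598 to 2.42 TPM in the SMAD4-negative libraries, against 0.926 to 3.04 and 5.65 to 23.8 TPM in the SMAD4-positive ones.

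The genes with the pattern most like FST and ID1 were listed by Spearman's rho across libraries of one group, among genes with a mean of at least 5 TPM. Across the 12 SMAD4-negative libraries and 11090 genes, ANO1 (rho = 0.888), IL6ST (0.881), APMAP (0.874), CAMK4 (0.846) and MED30 (0.839) ranked highest with FST. In the same libraries, SMIM8 and C17orf58 (both 0.902), DALRD3 and SSH3 (both 0.867) and RAPGEF5 (0.860) ranked highest with ID1. Across the 14 SMAD4-positive libraries and 10849 genes, ID3 and the unnamed row equal to it ranked highest with ID1 (rho = 0.873), followed by AVEN (0.868), PKM (0.793) and S100A11 (0.776). These are the top ranks of correlations with all genes of the group over few libraries that share a scaling, and they are a description only.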

How the data were processed

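Poly(A)-selected, strand-specific libraries of 26 SCDCLs were sequenced for the study by a commercial provider and quantified by the authors with kallisto 0.46.1 against Ensembl release 103 transcripts of GRCh38, per the labels and the study's methods. Transcript values were summed to genes by the authors, with counts scaled by transcript length, so a short transcript can raise TPM and length-scaled counts from few reads. The deposited table, per its file headers, holds TPM, length-scaled estimated counts and kallisto's resampled estimated counts per library. Other settings are not given in the sources used here. TPM was used for levels. Estimated counts, rounded to whole numbers, were tested with edgeR 4.0.16 (TMM, filterByExpr, quasi-likelihood, Benjamini-Hochberg over 16008 genes) and, as an alternative, DESeq2 1.42.0 in R 4.3.3. The quantification error used 4 of the 30 deposited resampled estimates per library, where 30 were planned, and 702 per-sample columns were not used.

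Labels were taken from the cell line field. Libraries were split by SMAD4 TPM under 1, and ranges, not tests, compare these groups. Correlations used log2(TPM + 1) within a group where both genes had a mean of at least 1 TPM. Genes were named if they were among the 10, were SMAD4, belonged to another list and reached 5 TPM in a library, or ranked in the top 5 by rho. The genes and lists were chosen with earlier results of these data known. Positions are from GENCODE 44 and promoters from RefSeq. The edgeR fits with the label alone and with the SMAD4 group as a covariate were tried on simulated data, as was the permutation test of r. The interaction fit, DESeq2 and the permutation test of rho were not. Alternatives changed the normalization, count filter, tool, scale, pseudocount and libraries. Depth was 27035724 to 34945608 estimated counts per library, and a level near 0.1 TPM rests on a few counts.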

Additional observations from a re-analysis of the deposited data

How the results depend on the processing

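The 6 genes without overlap were the same 6 on the TMM CPM scale and with median-of-ratios scaling of the counts, and BMP7 joined them with the mean of the resampled counts. The share of all genes without overlap was 25% at a mean of at least 0.1 TPM and 31.2% at 5. DESeq2 called 1 gene between labels, 2 with the SMAD4 group as a covariate and 11 for the interaction, where edgeR called 0, also with any library left out of the first pair of fits; the cause was not tested. With DESeq2 the label log2 fold change of BMP7 turned to 0.014, and among SMAD4-positive libraries alone that of INHBA turned to 0.44 and that of ID3 to -0.035. Without the 2 libraries farthest from the median, ID1 with BMP4 lost its call (r = -0.721), INHBA with FST turned to -0.0659 and INHBA with FSTL3 in the SMAD4-positive libraries to 0.429.

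Leaving out libraries one by one (for the correlations, an alternative added after seeing the data), none of the 10 label fold changes was called. They ranged from -1.12 to 0.28 for BMP2, -0.50 to 1.41 for BMP4, -1.26 to 0.11 for BMP7, -0.033 to 0.15 for ID1, -0.047 to 0.17 for ID3, -0.50 to 0.28 for INHBA, -0.32 to -0.11 for FST (-0.0047 with DESeq2), 0.43 to 0.76 for FSTL1, 0.14 to 0.34 for FSTL3 and 0.30 to 0.64 for INHBB. INHBA with FST ranged from r = 0.0902 to 0.600. INHBA with FSTL3 ranged from r = -0.204 to 0.384 in the SMAD4-negative and from -0.386 to 0.499 in the SMAD4-positive libraries, and INHBA with INHBB from -0.459 to 0.0876 in the latter. Summing ID3 with the row of equal values and using resampled counts, both also added after seeing the data, lost no correlation call in r, but with resampled counts the rho of ID1 with BMP4 lost its call (-0.636, permutation test, adjusted p = 0.150), as it did on the TMM CPM scale (-0.713, adjusted p = 0.0586). No paired analysis was possible because each library number in the labels is used once and the labelled groups share none. Levels under about 0.1 TPM rest on a few counts, and 1 library per clone leaves clone and library effects inseparable.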
